A study of Arabidopsis thaliana with 32 samples.

Results

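The comparison set shoots of the q-lsu-KO mutant against wild-type (WT) shoots of Arabidopsis thaliana under normal sulfur supply [nS]. It used 8 of the 32 libraries of the series, 4 of each genotype, which are named by group in the sample labels and were sequenced together in pool 1. WT is the Col-0 accession. The q-lsu-KO line is a single Col-0 line that carries deletions in all 4 genes of the LSU (RESPONSE TO LOW SULFUR) family, so that an effect of the deletions and of anything else particular to this line cannot be told apart. All seedlings were grown in vitro for 10 days with 1 mM sulfate and for 5 more days on fresh medium with 1 mM sulfate, under short days (8 h light, then 16 h dark), and shoots were taken at 15 days. Each collection combined at least 10 seedlings. Shoots under sulfur deficiency [dS] and roots under [nS], of both genotypes and the same age, are used for comparison in some places below. For [dS], seedlings also grew for 10 days with 1 mM sulfate. They then spent 5 days on medium with magnesium chloride in place of magnesium sulfate. The libraries are described by the authors as biological replicates, but the sources do not say whether separate plates were used, and p-values here reflect only how these samples varied. The transcripts were counted by 3′RNA-seq, which reads a tag near the 3′ end of each transcript. Values per library are counts scaled to a common library size (CPM) after TMM scaling, and their spread is the SD over 4 libraries. Log2 fold changes are q-lsu-KO over WT with their standard error, from 4 libraries against 4. In these whole shoots, fewer cells of a type and less RNA per cell cannot be told apart.

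Plants take up sulfate, activate it with ATP sulfurylase to adenosine phosphosulfate (APS), and either reduce APS to sulfide for cysteine, glutathione and methionine or phosphorylate it to PAPS, the sulfate donor for sulfated compounds. Among these are the glucosinolates (GSL), defense compounds of the cabbage family that are made from methionine (aliphatic GSL) or tryptophan (indole GSL) and that hold much of the sulfur of a shoot. When sulfate is scarce, uptake and recycling genes are switched on and GSL synthesis genes are switched off. The LSU genes belong to the genes switched on, and they encode small coiled-coil proteins that bind other proteins.

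Shoots of q-lsu-KO under [nS] had more S deficiency transcripts and fewer GSL synthesis transcripts than WT shoots, and also more transcripts of a number of early stress, jasmonate and sugar starvation genes. Of 14593 genes tested with edgeR's quasi-likelihood test, 704 were called (4.82%), 490 higher in q-lsu-KO (3.36%) and 214 lower (1.47%). A call required a p adjusted by Benjamini-Hochberg of less than 0.05 together with more than a 1.5-fold change. The genes called higher had a median log2 fold change of 1.06, and 267 of them changed by over 2-fold and 59 by over 4-fold. The genes called lower had a median of -0.87, with 80 over 2-fold and 7 over 4-fold. The median over all genes was -0.0081. With upper-quartile factors in place of TMM, 428 genes were called higher and 298 lower. DESeq2 called 485 genes higher (3.00% of 16165 genes tested) and 160 lower (0.990%), and 408 and 149 of these were the genes called by edgeR.

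**Figure D1:**
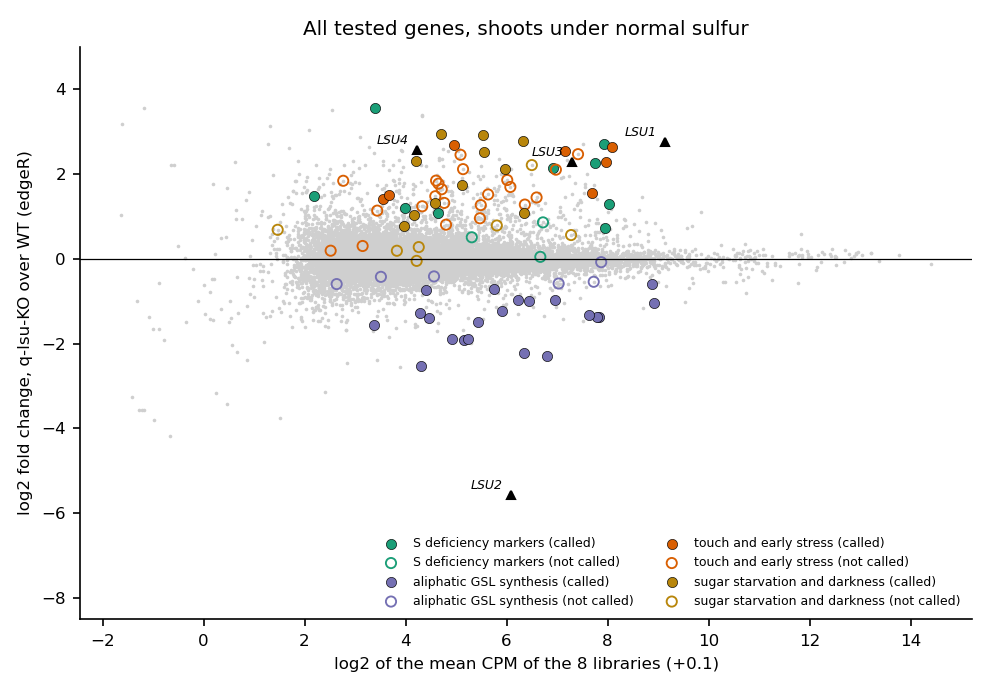
Each grey dot is 1 of the 14593 genes tested, with the log2 of its mean CPM over the 8 libraries on the x axis and its log2 fold change (q-lsu-KO over WT) on the y axis. Triangles are the 4 LSU genes, and coloured circles are members of 4 gene lists, filled where called. LSU2 lies far below all other genes of its level at -5.58, the called aliphatic GSL genes lie below 0, and the called S deficiency, early stress and sugar starvation genes lie above 0.

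The libraries of both genotypes were spread unevenly. In a principal component analysis of the 500 genes with the highest variance, PC1 held 66.9% of the variance, and the WT libraries scored -30.4, -20.4, -14.8 and -2.05 (replicates 1 to 4) and the q-lsu-KO libraries 12.6, 16.8, 19.6 and 18.6. WT replicate 4 thus stood nearest to the mutant and WT replicate 1 farthest from it. Of the 490 genes called higher, WT replicate 4 was the highest WT library in 65.7% and WT replicate 1 the lowest in 45.5%, while over all genes tested these shares were 26.9% and 24.7%. Within q-lsu-KO, replicate 1 was the lowest library in 52.0% of the genes called higher and replicate 4 the highest in 42.9%. Of the 214 genes called lower, WT replicate 4 was the lowest WT library in 51.4% and q-lsu-KO replicate 4 the lowest mutant library in 48.6%. The part of this order in the results was not tested. With 1 library left out at a time, 325 to 586 genes were called higher and 139 to 277 lower, and 252 of the 490 and 92 of the 214 were called in each of those 8 fits (344 genes, 2.36% of the genes tested). Without WT replicates 1 and 4, a setting chosen after seeing the data, 387 and 171 genes were called, of which 313 and 138 were among the 490 and 214.

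All libraries of a genotype lay on the same side of all libraries of the other in 1824 genes (12.5% of the genes tested), with the mutant above in 1062 (7.28%) and below in 762 (5.22%). This was so for 423 of the 490 genes called higher and 188 of the 214 called lower. Library totals were 1440122 to 2032330 counts in WT and 1223064 to 1743661 in q-lsu-KO. Shoot tissue showed in the photosynthesis genes, which are described below, and root markers were low: the summed level of 10 root markers was 415 to 608 CPM in the 8 libraries, nearly all from the beta-glucosidase gene PYK10, against 4908 to 5925 CPM in WT roots, and 6 to 9 of the 10 were at 0 in each library. COBL9, EXPA7, RHD6, CASP5 and IRT1, which mark root hairs, endodermis and root epidermis, had no count in any of the 8 libraries. Called genes were spread over the chromosomes, at 3.01% to 3.66% higher and 1.35% to 1.67% lower of the genes tested on each.

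Early stress genes were among those with the largest spread in WT. Among the 8573 genes whose mean log2 CPM was 4 or more, 50 had an SD over 1 on the log2 scale in WT and 8 in q-lsu-KO. Of those 50, 43 had their lowest WT value in replicate 1 and their highest in replicate 4, and 47 had a higher mean in the mutant. The mutant lay above WT without overlap in 27 of the 50, beside 7.28% of all genes tested. Of the 50, 10 were called, beside 4.82% of all genes tested. The 10 genes with the largest WT spread, none of them called, included the ethylene response factor genes ERF104 and ERF105, the zinc finger gene ZAT10, the calcium-binding protein genes PBP1 and AT4G27280, and the dark-responsive BT5. ERF104 stood at 0, 12.9, 31.8 and 82.5 CPM in WT and at 119.8, 117, 98.6 and 76.6 CPM in q-lsu-KO. ZAT10 stood at 2.52, 25.2, 69.9 and 111 CPM in WT and at 163, 197, 131 and 71.5 CPM in q-lsu-KO. In both genes WT replicate 1 was by far the lowest library and WT replicate 4 reached the range of the mutant, so that the groups overlapped, with log2 fold changes of 1.70 ± 0.88 (adjusted p = 0.34) and 1.45 ± 0.92 (adjusted p = 0.45). Among all 14593 genes the SD was larger in WT in 6314 (43.3%), among the 490 called higher in 311 (63.5%), and among the 214 called lower in 55 (25.7%). In each of these called sets the larger SD was thus more often that of the genotype with the lower level. The part of level in this was not tested.

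**Figure D2:**
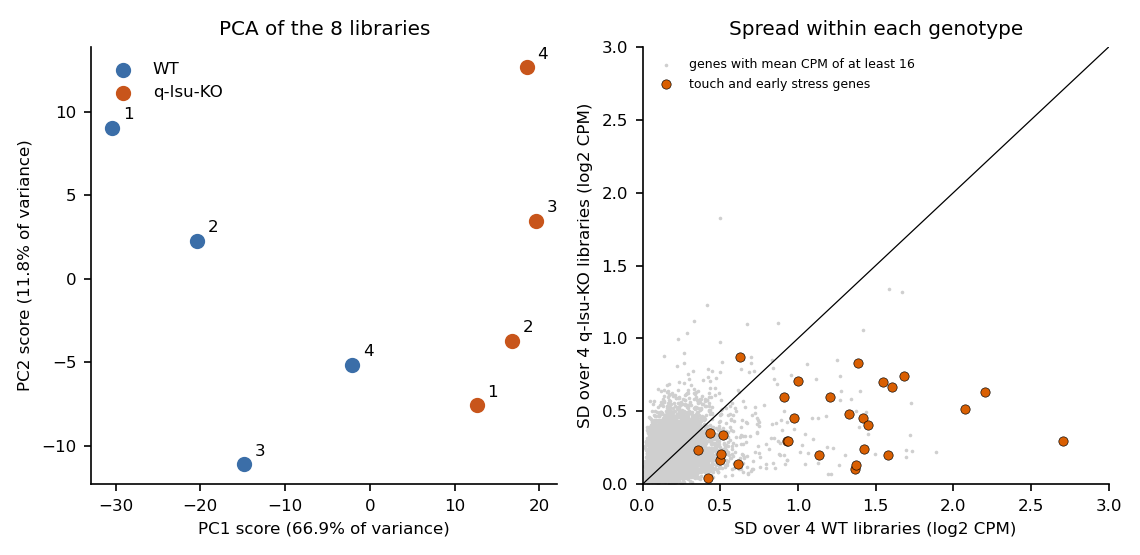
Left, scores of the 8 libraries on PC1 (66.9% of variance) and PC2 (11.8%) of the 500 most variable genes, with replicate numbers. Right, SD of log2 CPM over the 4 WT libraries (x) against that over the 4 q-lsu-KO libraries (y) for genes above a set mean CPM, with the line of equality. The 4 WT libraries run from -30.4 to -2.05 on PC1 and the mutant libraries from 12.6 to 19.6, and 28 of the 29 tested touch and early stress genes had a larger SD in WT.

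In the targeted family, LSU2 was nearly lost while the tags of the other members were higher in the mutant. LSU2 (AT5G24660, chromosome 5, 8443279 to 8444101 in RefSeq TAIR10.1) stood at 96.8, 126, 141 and 167 CPM in WT and at 2.69, 2.52, 3.01 and 2.52 CPM in q-lsu-KO. Its log2 fold change was -5.58 ± 0.23 (adjusted p = 1.1e-14), with all mutant libraries far below all WT libraries. LSU1 (AT3G49580, chromosome 3, 18374908 to 18375940) stood at 82.1, 139, 186 and 182 CPM in WT and at 969.5, 927, 1127 and 901 CPM in q-lsu-KO, a change of 2.75 ± 0.21 on the log2 scale (adjusted p = 3e-06). LSU3 (AT3G49570, chromosome 3, 18372404 to 18373147) stood at 26.7, 42.3, 65.7 and 81.4 CPM in WT and at 254, 258, 286 and 246 CPM in q-lsu-KO, a change of 2.28 ± 0.23 on the log2 scale (adjusted p = 3.7e-05). The mutant libraries were close together in both genes, and WT replicate 1 was the lowest library. LSU4 (AT5G24655, chromosome 5, 8440601 to 8441364) stood at 2.52, 5.28, 12 and 3.21 CPM in WT and at 30.3, 36.1, 37.3 and 22.7 CPM in q-lsu-KO, a change of 2.56 ± 0.33 on the log2 scale (adjusted p = 4.4e-05), again with no overlap. All 4 were called with each library left out. Where a deletion lies outside the tagged 3′ end the tag does not check it, and the extent of the deletions is not given in the sources used here. LSU1 and LSU3 lie side by side, as do LSU2 and LSU4, and related genes can share reads. Of their neighbours, ATG13, an autophagy gene beside LSU1, was called higher (0.96 ± 0.19, adjusted p = 0.00049), AT5G24650 beside LSU4 had 0.52 ± 0.11 (adjusted p = 0.0013) without passing the fold threshold, and AT3G49560 and EMB2820 were not called (0.26 ± 0.11 and -0.31 ± 0.16).

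Of 12 tested S deficiency marker genes, 9 were called higher, beside 3.36% of all genes tested, and 0 lower, with a median log2 fold change of 1.24, and 8 of the 9 were called with each library left out. GGCT2;1, a gamma-glutamyl cyclotransferase that takes glutathione apart in the cytosol, stood at 63.0, 77.5, 86.9 and 70.2 CPM in WT and at 380.1, 389.5, 346 and 309.6 CPM in q-lsu-KO. Its log2 fold change was 2.27 ± 0.08 (adjusted p = 1.2e-24), the smallest adjusted p of the genes called higher, and the gap between the genotypes was many times the spread within them. SDI1, SULFUR DEFICIENCY-INDUCED 1, known as a repressor of GSL synthesis, stood at 31.2, 57.0, 88.3 and 84.6 CPM in WT and at 417, 454, 411 and 402 CPM in q-lsu-KO, a change of 2.71 ± 0.21 on the log2 scale (adjusted p = 4.9e-06). SHM7, a member of the serine hydroxymethyltransferase family, stood at 26.2, 47.6, 50.9 and 55.2 CPM in WT and at 159, 211, 202 and 216 CPM in q-lsu-KO, a change of 2.14 ± 0.21 on the log2 scale (adjusted p = 3.6e-05). In SDI1 and SHM7 the lowest WT value was that of replicate 1, and the lowest mutant library exceeded the highest WT library by far. NSP5, a nitrile-specifier protein of GSL breakdown, stood at 146, 149, 153 and 157 CPM in WT and at 379, 398, 378 and 326 CPM in q-lsu-KO, a change of 1.29 ± 0.07 on the log2 scale (adjusted p = 1e-17). BGLU28, a beta-glucosidase linked to GSL breakdown under S deficiency, stood at 0, 1.76, 2.12 and 2.68 CPM in WT and at 22.2, 16.8, 18.0 and 20.2 CPM in q-lsu-KO, with no count in WT replicate 1 and a log2 fold change of 3.56 ± 0.40 (adjusted p = 3.7e-05).

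The remaining markers included lower-level genes and smaller changes. The APS reductase gene APR3 stood at 134, 164, 209.8 and 237 CPM in WT and at 314, 306, 337 and 270.1 CPM in q-lsu-KO, a change of 0.73 ± 0.14 on the log2 scale (adjusted p = 0.0061). SERAT3;2, a serine acetyltransferase, stood at 7.56, 7.63, 14.1 and 9.11 CPM in WT and at 23.5, 21.0, 15.6 and 26.9 CPM in q-lsu-KO, a change of 1.19 ± 0.22 on the log2 scale (adjusted p = 0.00028). Groups did not overlap in either gene, though WT replicate 4 of APR3 and WT replicate 3 of SERAT3;2 came close to the lowest mutant library. SULTR4;2, which exports sulfate from the vacuole, stood at 14.1, 15.9, 19.1 and 15.5 CPM in WT and at 35.0, 29.4, 31.9 and 38.7 CPM in q-lsu-KO, a change of 1.07 ± 0.16 on the log2 scale (adjusted p = 8.2e-06). SULTR1;2, a high-affinity sulfate uptake transporter best known from roots, was low in shoots at 2.02, 3.52, 1.41 and 2.14 CPM in WT and at 5.38, 5.04, 6.01 and 10.1 CPM in q-lsu-KO, with a change of 1.48 ± 0.41 on the log2 scale (adjusted p = 0.017). Its call was lost without WT replicate 1 (adjusted p = 0.0619), WT replicate 3 (0.0569) or q-lsu-KO replicate 4 (0.101). SDI2 (0.86 ± 0.26, adjusted p = 0.067), SULTR4;1 (0.51 ± 0.14, adjusted p = 0.015) and SULTR2;1 (0.05 ± 0.11, adjusted p = 0.89) were not called, SULTR4;1 for its fold only, and SULTR1;1 had no count in any of the 8 libraries.

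Most genes of sulfate reduction itself were not called. Of 18 tested genes of sulfate reduction and cysteine synthesis, 2 were called higher (APR3 and SERAT3;2 above) and 1 lower, beside 3.36% and 1.47% of all genes tested, with a median log2 fold change of -0.12. The gene called lower was ATPS2, an ATP sulfurylase, which stood at 73.1, 56.4, 74.9 and 65.9 CPM in WT and at 28.9, 26.9, 26.5 and 16.8 CPM in q-lsu-KO, a change of -1.43 ± 0.15 on the log2 scale (adjusted p = 1.1e-09) with no overlap. Its relatives had log2 fold changes of 0.04 ± 0.08 (ATPS1), 0.24 ± 0.18 (ATPS3) and -0.44 ± 0.17 (ATPS4), and sulfite reductase (SIR) had -0.15 ± 0.10 (adjusted p = 0.43). None of these was called. The log2 fold changes of APR1 and APR2 were 0.17 ± 0.09 (adjusted p = 0.31) and -0.31 ± 0.10 (adjusted p = 0.052). Of 15 tested glutathione genes, GGCT2;1 and GSTF8, a glutathione transferase, were called higher. GSTF8 had a log2 fold change of 0.92 ± 0.22 (adjusted p = 0.027) and kept its call in 2 of the 8 fits with a library left out, with an adjusted p of up to 0.0819 over all alternatives.

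Genes of PAPS supply were also lower. Of 5 tested genes, 3 were called lower, beside 1.47% of all genes tested, and 0 higher, with a median log2 fold change of -0.77, and all 3 were called with each library left out. APK2, an APS kinase that makes PAPS, stood at 158, 134, 172 and 152 CPM in WT and at 53.2, 66.3, 61.9 and 61.4 CPM in q-lsu-KO, a change of -1.35 ± 0.12 on the log2 scale (adjusted p = 1.1e-09). APK1 had -0.73 ± 0.10 (adjusted p = 1.1e-06), and SAL1, a phosphatase that removes the byproduct of sulfation, had -0.87 ± 0.15 (adjusted p = 7.5e-05). The groups did not overlap in any of the 3. The PAPS transporter gene PAPST1 (-0.77 ± 0.29, adjusted p = 0.11) and APK3 (-0.32 ± 0.31, adjusted p = 0.65) were not called.

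**Figure D3:**
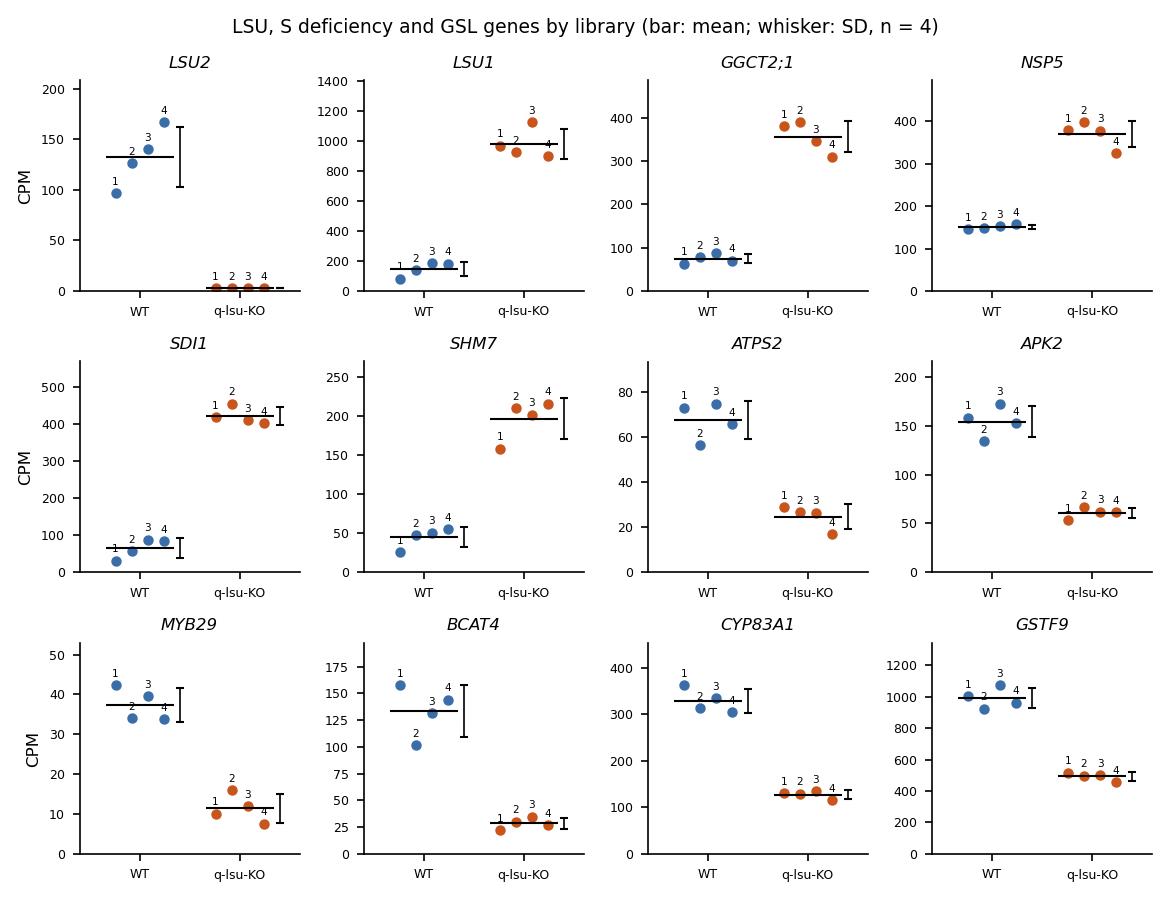
CPM of 12 LSU, S deficiency, sulfate activation and GSL genes in each of the 4 WT (blue) and 4 q-lsu-KO (orange) libraries, with replicate numbers, the mean as a bar and the SD as a whisker. Each panel starts at 0. LSU2, ATPS2, APK2, MYB29, BCAT4, CYP83A1 and GSTF9 are lower and LSU1, GGCT2;1, NSP5, SDI1 and SHM7 higher in the mutant, with no overlap between genotypes in any panel.

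Most genes of aliphatic GSL synthesis were lower in the mutant. Of 27 tested genes of chain elongation, core structure and side chains, 21 were called lower, beside 1.47% of all genes tested, and 0 higher, with a median log2 fold change of -1.22, and 19 were called with each library left out. The mutant lay below WT without overlap in 23 of the 27, beside 5.22% of all genes tested. Of the regulators, MYB29 stood at 42.3, 34.1, 39.6 and 33.7 CPM in WT and at 10.1, 16.0, 12 and 7.57 CPM in q-lsu-KO, a change of -1.71 ± 0.20 on the log2 scale (adjusted p = 2.9e-08). MYB28, the main activator of the pathway, stood at 87.7, 73.4, 86.9 and 73.9 CPM in WT and at 57.2, 40.3, 36.1 and 44.6 CPM in q-lsu-KO, a change of -0.85 ± 0.12 on the log2 scale (adjusted p = 4.5e-06). MYC2, MYC3 and MYC4, transcription factors that act with the MYB factors, were not called (0.76 ± 0.33, 0.08 ± 0.13 and -0.60 ± 0.27). MYB76 was too low to test, with 3 to 5 counts in WT and 0 in each q-lsu-KO library.

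Of 9 chain elongation genes, 7 were called lower, beside 1.47% of all genes tested, with a median of -1.33. BCAT4, the aminotransferase that takes methionine into the pathway, stood at 158, 102, 131 and 144 CPM in WT and at 22.2, 30.2, 34.9 and 26.9 CPM in q-lsu-KO, a change of -2.22 ± 0.15 on the log2 scale (adjusted p = 2.3e-14). MAM1, a methylthioalkylmalate synthase, stood at 313, 238, 302 and 286 CPM in WT and at 121, 108, 129.8 and 91.7 CPM in q-lsu-KO, a change of -1.33 ± 0.10 on the log2 scale (adjusted p = 2.9e-14). Both were far below WT in all 4 mutant libraries. The plastid carrier gene BAT5 had -1.90 ± 0.23 (adjusted p = 7e-07), and IMD1, IPMI1 and IPMI2, enzymes of the elongation cycle, had -1.38 ± 0.10, -1.48 ± 0.17 and -0.98 ± 0.11. MAM3 fell by less (-0.73 ± 0.19, adjusted p = 0.012) and lost its call without q-lsu-KO replicate 4. BCAT3 (-0.58 ± 0.10, adjusted p = 5.7e-05) and IIL1 (-0.54 ± 0.08, adjusted p = 1.1e-05) stayed under the fold threshold.

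Of 11 core structure genes, 10 were called lower, beside 1.47% of all genes tested, with a median of -1.22, all 10 with each library left out. CYP79F1, the cytochrome P450 that commits elongated methionine to GSL, stood at 218, 147, 197 and 182 CPM in WT and at 49.8, 43.7, 34.3 and 23.6 CPM in q-lsu-KO, a change of -2.29 ± 0.16 on the log2 scale (adjusted p = 1.8e-09). It is nearly identical to CYP79F2 (-1.57 ± 0.30, adjusted p = 0.00045), so reads may be split between them. CYP83A1, which acts next, stood at 363, 313, 335 and 305 CPM in WT and at 131, 129, 135 and 115 CPM in q-lsu-KO, a change of -1.36 ± 0.09 on the log2 scale (adjusted p = 6.2e-16). The sulfotransferase gene SOT17 stood at 59.0, 42.9, 61.5 and 61.6 CPM in WT and at 16.1, 18.5, 10.2 and 16.0 CPM in q-lsu-KO, a change of -1.91 ± 0.18 on the log2 scale (adjusted p = 1.5e-10). In these genes all mutant libraries lay below all WT libraries. The glutathione transferase gene GSTU20, among the most abundant genes called lower, fell from 654 ± 67.3 CPM (SD, n = 4) to 319.6 ± 46.7 CPM (SD, n = 4) (-1.03 ± 0.09, adjusted p = 1.5e-08), and SUR1, UGT74B1, UGT74C1, SOT18 and GSTF11 had log2 fold changes of -1.0 ± 0.11, -0.71 ± 0.13, -0.98 ± 0.14, -1.22 ± 0.14 and -1.27 ± 0.23. The exception was GGP1, a gamma-glutamyl peptidase (-0.08 ± 0.08, adjusted p = 0.70). Of 7 side chain genes, 4 were called lower, beside 1.47% of all genes tested: AOP2 (-2.53 ± 0.26, adjusted p = 1.2e-09), FMOGS-OX3 (-1.90 ± 0.16, adjusted p = 1.1e-11), FMOGS-OX1 (-1.40 ± 0.19, adjusted p = 1.1e-06) and GSL-OH (-0.59 ± 0.11, adjusted p = 0.0017). The fold of GSL-OH lay near the threshold, and it kept its call in 3 of the 8 fits with a library left out. The 3 tested GSL transporter genes were not called (0 by DESeq2, and 2 of 3 with an unadjusted p under 0.05).

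AK3 and MS2, which belong to no list, were named for their fall and their abundance. AK3, an aspartate kinase at the start of methionine synthesis, stood at 71.1, 59.3, 67.8 and 52.5 CPM in WT and at 18.166, 25.2, 11.4 and 9.26 CPM in q-lsu-KO, a change of -1.98 ± 0.19 on the log2 scale (adjusted p = 5.1e-10). MS2, a methionine synthase and one of the most abundant genes called lower, stood at 588, 600.1, 634 and 495 CPM in WT and at 301, 276, 244 and 215 CPM in q-lsu-KO, a change of -1.16 ± 0.10 on the log2 scale (adjusted p = 1.6e-07). No mutant library reached the WT range in either gene. AK3 was among the 12 largest falls without overlap.

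Indole GSL genes moved in both directions. Of 16 tested, 5 were called lower and 1 higher, beside 1.47% and 3.36% of all genes tested, with a median of -0.0077, and all 6 were called with each library left out. MYB34, an activator of indole GSL synthesis, stood at 31.7, 34.6, 25.4 and 16.1 CPM in WT and at 13.5, 10.9, 3.61 and 10.1 CPM in q-lsu-KO, a change of -1.54 ± 0.30 on the log2 scale (adjusted p = 0.0015). MYB51, another such activator, stood at 3.53, 5.87, 4.24 and 13.9 CPM in WT and at 19.5, 21.8, 29.5 and 26.1 CPM in q-lsu-KO, a change of 1.79 ± 0.37 on the log2 scale (adjusted p = 0.0067). These relatives thus moved in opposite directions, each without overlap. GSTF9, a glutathione transferase, stood at 1004, 924, 1073 and 961 CPM in WT and at 516, 497, 503 and 455 CPM in q-lsu-KO, a change of -1.01 ± 0.07 on the log2 scale (adjusted p = 5.6e-15). The other genes called lower were CYP83B1 (-1.14 ± 0.15, adjusted p = 3.6e-05), CYP79B2 (-1.05 ± 0.24, adjusted p = 0.0062) and the sulfotransferase gene SOT16 (-0.74 ± 0.12, adjusted p = 2.6e-05). CYP79B3, which encodes the same activity as CYP79B2, had -0.09 ± 0.31 (adjusted p = 0.93). Of the genes that modify the indole ring, CYP81F2 (2.22 ± 0.63, adjusted p = 0.054) and IGMT1 (1.21 ± 0.42, adjusted p = 0.11) had higher values in all mutant libraries without being called. Of 15 tested genes of GSL breakdown, NSP5, BGLU28 and NIT3 were called higher (3.36% of all genes) and NIT4 lower (1.47%). NIT4, a nitrilase, stood at 36.3, 33.5, 28.3 and 38.6 CPM in WT and at 14.1, 14.3, 15.0 and 15.1 CPM in q-lsu-KO, a change of -1.23 ± 0.18 on the log2 scale (adjusted p = 7.4e-06). NIT3 had 1.02 ± 0.30 (adjusted p = 0.028) and was called in 3 of the 8 fits with a library left out, with an adjusted p of up to 0.106, and reads of NIT1 to NIT3 may be shared. The myrosinase genes TGG1 (0.07 ± 0.07) and TGG2 (-0.01 ± 0.10) were not called, and PEN2, a myrosinase of pathogen defense (0.51 ± 0.10, adjusted p = 0.0016), and ESM1, an epithiospecifier modifier (-0.55 ± 0.11, adjusted p = 0.0033), differed by less than the fold threshold.

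Touch and early stress genes, which respond within minutes to handling, wounding or elicitors, had higher mean levels in the mutant and a large spread in WT. Of 29 tested, 7 were called higher, beside 3.36% of all genes tested, and 0 lower, with a median log2 fold change of 1.56, and all 29 were above 0, from 0.19 (CAF1B) to 2.69 (CML38). The mutant lay above WT without overlap in 15 of the 29, beside 7.28% of all genes tested. The median range over the 4 libraries was 2.81 on the log2 scale in WT and 0.796 in q-lsu-KO. Only 4 of the 29 were called with each library left out, and 4 were called without WT replicate 2. DESeq2 called 14 and a fit of only the 8 libraries 12. MPK3, a MAP kinase of immune signalling, stood at 80.6, 86.3, 95.4 and 154 CPM in WT and at 299, 322, 307 and 308 CPM in q-lsu-KO, a change of 1.56 ± 0.20 on the log2 scale (adjusted p = 0.00034). TCH3, a calmodulin-like protein, stood at 35.3, 65.2, 64.3 and 171 CPM in WT and at 302, 426, 461 and 469.5 CPM in q-lsu-KO, a change of 2.30 ± 0.46 on the log2 scale (adjusted p = 0.0093). In both, WT replicate 4 was the highest WT library and still well below the mutant. WRKY33, a transcription factor of the defense against fungi, stood at 11.1, 15.3, 49.4 and 91.6 CPM in WT and at 258, 240.1, 260.3 and 214 CPM in q-lsu-KO, a change of 2.55 ± 0.56 on the log2 scale (adjusted p = 0.015), and missed the threshold without WT replicate 2 (adjusted p = 0.052). TCH4, a cell wall xyloglucan enzyme, stood at 28.2, 52.8, 72.0 and 147 CPM in WT and at 324, 439, 427 and 695 CPM in q-lsu-KO, a change of 2.64 ± 0.59 on the log2 scale (adjusted p = 0.017), and missed the threshold without WT replicate 1, 2 or 3 or q-lsu-KO replicate 4 (adjusted p of 0.0574, 0.0595, 0.0526 and 0.0529). The ubiquitin ligase genes PUB23 (1.41 ± 0.28, adjusted p = 0.00063) and ATL6 (1.5 ± 0.32, adjusted p = 0.0031) were called with each library left out, and CML38 (2.69 ± 0.73, adjusted p = 0.045) in 1 of the 8 fits, with an adjusted p of up to 0.129.

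Other genes of the list differed by as much but were not called. SZF1, a zinc finger gene, stood at 11.6, 22.3, 57.2 and 118 CPM in WT and at 282, 343, 303 and 229 CPM in q-lsu-KO, a change of 2.47 ± 0.69 on the log2 scale (adjusted p = 0.051). HSPRO2 stood at 7.56, 22.3, 65.7 and 96.4 CPM in WT and at 207, 233, 209 and 167 CPM in q-lsu-KO, a change of 2.11 ± 0.71 on the log2 scale (adjusted p = 0.11). In both genes every mutant library lay above every WT library, and the WT libraries ranged over 3.23 (SZF1) and 3.50 (HSPRO2) on the log2 scale. WRKY40 (2.12 ± 0.72, adjusted p = 0.11), ERF6 (2.46 ± 0.71, adjusted p = 0.059) and TCH2 (1.28 ± 0.37, adjusted p = 0.062) also stayed below the threshold. Among 11 other WRKY factors, 4 were called higher, beside 3.36% of all genes tested, and 0 lower, with a median of 1.11, and 3 of the 4 were called with each library left out. WRKY53, a low gene, stood at 3.02, 2.94, 2.83 and 2.68 CPM in WT and at 11.4, 22.7, 30.1 and 21.0 CPM in q-lsu-KO, a change of 2.87 ± 0.42 on the log2 scale (adjusted p = 0.00013). The WT values rest on a few counts per library, so their closeness says little about the spread. The mutant libraries, though spread, were all above them. WRKY22 (2.30 ± 0.39, adjusted p = 7.7e-05) and WRKY11 (0.91 ± 0.14, adjusted p = 1.8e-05) were called, as was WRKY15 (1.56 ± 0.38, adjusted p = 0.027), which kept the call in 3 of the 8 fits with a library left out (adjusted p of up to 0.0906).

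**Figure D4:**
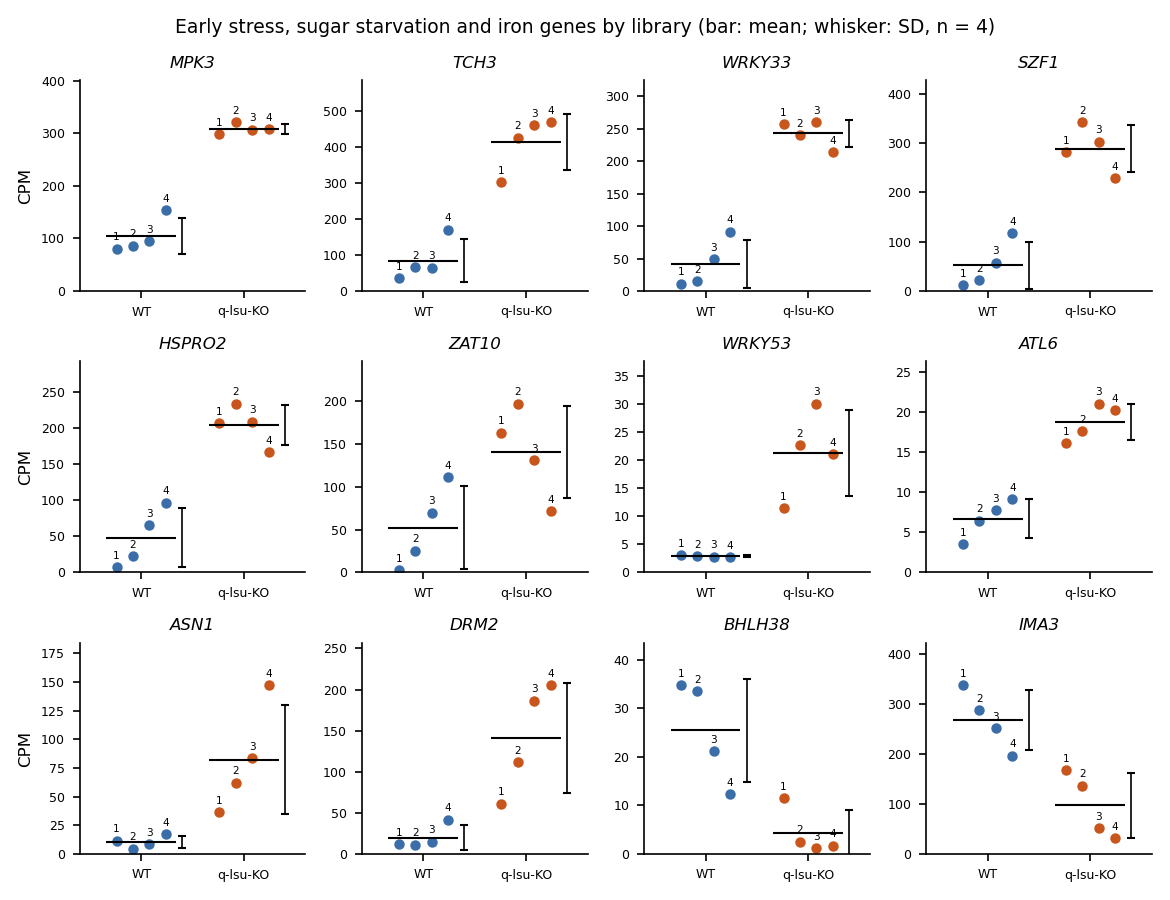
CPM of 12 early stress, sugar starvation and iron genes in each of the 4 WT (blue) and 4 q-lsu-KO (orange) libraries, with replicate numbers, the mean as a bar and the SD as a whisker, cut off at 0. Among WT libraries, WRKY33, SZF1, HSPRO2 and ZAT10 are lowest in replicate 1 and highest in replicate 4 (SZF1 at 11.6 and 118 CPM). WRKY53 lies between 2.68 and 3.02 CPM in WT, a level of a few counts per library. ASN1 and DRM2 are higher in the mutant, and BHLH38 and IMA3 are lower there.

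Promoters of genes called higher were searched for short elements, chosen after the data were seen. The window was the 250 bases before the annotated gene start (RefSeq TAIR10.1), in which both strands were searched. The element ACGCGT, the CGCG core to which calmodulin-binding transcription activators of Arabidopsis are known to bind, was present in 28 of 487 promoters of genes called higher (5.75%), in 2 of 213 of genes called lower (0.939%) and in 259 of 14441 of all genes tested (1.79%). Of the 250 promoters of genes called higher with each library left out, 18 held it (7.20%). The W-box core TTGAC, bound by WRKY factors, was present in 48.5%, 40.8% and 44.2% of the promoters of genes called higher, called lower and tested. The SURE core GAGAC, known from promoters that respond to S deficiency, was in 23.8%, 28.6% and 24.7%, and in 3 of the 12 tested S deficiency markers. TATCCA, known from sugar-repressed promoters, was in 20.9%, 14.6% and 14.8%. CACGTG, the G-box, was in 9.03%, 9.86% and 7.53%, and AGCCGCC, the GCC box bound by ethylene response factors, in 1.23%, 0.939% and 0.609%. No element is contained in another, though their ends can overlap. A match is a description of the letters only. Shown here are the promoters of 4 genes called higher with each library left out that hold ACGCGT, which is in capitals. ATL6 is on the plus strand (chr3:1476710-1476959), with the element starting 112 bases before the gene start. NDR1 is on the plus strand (chr3:7194521-7194770), with the element at 36 bases. JAZ5 is on the minus strand (chr1:5957512-5957761), with the element at 230 bases, and ERD15 on the plus strand (chr2:17268908-17269157), with the element at 32 bases.
ATL6: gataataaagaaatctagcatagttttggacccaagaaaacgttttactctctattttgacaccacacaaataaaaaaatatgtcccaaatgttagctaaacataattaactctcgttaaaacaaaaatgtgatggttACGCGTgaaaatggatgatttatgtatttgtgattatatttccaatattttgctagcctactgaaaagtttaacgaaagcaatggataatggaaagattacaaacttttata
NDR1: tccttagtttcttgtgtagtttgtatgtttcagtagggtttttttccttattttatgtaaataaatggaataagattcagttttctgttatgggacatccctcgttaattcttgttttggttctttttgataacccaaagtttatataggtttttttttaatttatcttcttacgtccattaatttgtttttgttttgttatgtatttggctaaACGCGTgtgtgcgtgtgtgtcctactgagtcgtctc
JAZ5: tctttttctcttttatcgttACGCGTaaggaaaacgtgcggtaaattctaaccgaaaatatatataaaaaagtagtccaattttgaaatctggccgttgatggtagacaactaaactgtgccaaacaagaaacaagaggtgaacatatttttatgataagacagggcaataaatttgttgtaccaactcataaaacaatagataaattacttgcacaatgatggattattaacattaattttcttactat
ERD15: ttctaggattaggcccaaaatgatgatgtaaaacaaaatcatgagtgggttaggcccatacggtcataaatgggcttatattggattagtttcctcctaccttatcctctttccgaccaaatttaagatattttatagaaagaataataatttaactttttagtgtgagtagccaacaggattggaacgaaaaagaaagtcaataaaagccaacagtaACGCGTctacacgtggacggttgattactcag

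The genes of these 4 promoters differed between genotypes without overlap. ATL6 stood at 3.53, 6.46, 7.77 and 9.11 CPM in WT and at 16.1, 17.6, 21.0 and 20.2 CPM in q-lsu-KO. NDR1, a membrane protein needed for resistance to bacteria, stood at 7.56, 6.46, 7.77 and 8.57 CPM in WT and at 24.9, 15.1, 15.6 and 15.1 CPM in q-lsu-KO, a change of 1.23 ± 0.23 on the log2 scale (adjusted p = 0.00038). ERD15, an abundant gene of the early response to dehydration, stood at 433, 548, 595 and 769 CPM in WT and at 1009.9, 1136, 1373 and 1535 CPM in q-lsu-KO, a change of 1.11 ± 0.22 on the log2 scale (adjusted p = 0.0089). Replicate 1 was the highest mutant library for NDR1 and the lowest for ERD15 and ATL6. JAZ5, a repressor of jasmonate signalling, stood at 1.51, 1.76, 1.41 and 1.61 CPM in WT and at 7.4, 8.40, 7.21 and 7.57 CPM in q-lsu-KO, a change of 2.22 ± 0.49 on the log2 scale (adjusted p = 0.0033). Its WT values rest on a few counts per library. Over 20 alternative settings its call was lost in 1, with an adjusted p of up to 0.0733.

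Jasmonate, a hormone made from plastid lipids on wounding, was represented by synthesis and response genes. Of 11 tested synthesis genes, 2 were called higher, beside 3.36% of all genes tested, and 0 lower, with a median of 0.51, both with each library left out. LOX4, a lipoxygenase, stood at 2.52, 2.94, 2.83 and 3.75 CPM in WT and at 14.1, 13.4, 12 and 15.1 CPM in q-lsu-KO, a change of 2.15 ± 0.34 on the log2 scale (adjusted p = 2.3e-05). The WT values of LOX4 rest on a few counts per library. AOC2, an allene oxide cyclase, stood at 362, 385, 343 and 318 CPM in WT and at 632, 654, 655 and 605 CPM in q-lsu-KO, a change of 0.86 ± 0.07 on the log2 scale (adjusted p = 2.5e-10). Both groups of AOC2 were tight, though reads of AOC1 to AOC4 may be shared. Of 14 tested response genes, JAZ5, JAZ9 and JAZ3 were called higher (3.36% of all genes) and 0 lower, with a median of 0.83. In this list 7 were called in a fit of only the 8 libraries, 1 without WT replicate 1, 3 or 4 or q-lsu-KO replicate 2, 3 or 4 (each left out alone), and 0 without WT replicates 1 and 4 together. JAZ9 (0.94 ± 0.24, adjusted p = 0.037) and JAZ3 (0.76 ± 0.22, adjusted p = 0.029) kept their calls in 1 and 2 of the 8 fits with a library left out, with an adjusted p of up to 0.119 and 0.137. The outputs VSP2 (0.91 ± 0.33, adjusted p = 0.14), VSP1 (1.39 ± 0.43, adjusted p = 0.075) and CORI3 (-0.12 ± 0.22, adjusted p = 0.84) were not called.

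Some receptor and signalling genes of pattern-triggered immunity were higher, while the salicylate output genes overlapped between genotypes. Of 22 tested genes of salicylate and pattern-triggered defense, 6 were called higher, beside 3.36% of all genes tested, and 0 lower, with a median of 0.22, and 3 of the 6 were called with each library left out. Without WT replicate 1 or without q-lsu-KO replicate 4, 3 were called. These 3 were the receptor kinase genes SOBIR1 (1.38 ± 0.26, adjusted p = 0.0054) and LYK5 (1.5 ± 0.36, adjusted p = 0.0051) and NDR1. RBOHD, an oxidase that makes reactive oxygen at the membrane (1.08 ± 0.24, adjusted p = 0.015), was called in 6 of the 8 fits, BIK1, a cytoplasmic immune kinase (0.91 ± 0.25, adjusted p = 0.019), in 5 and CBP60G, an activator of salicylate synthesis (1.73 ± 0.48, adjusted p = 0.049), in 1. Over those fits the adjusted p reached 0.0591 for RBOHD and 0.144 for CBP60G, and BIK1 lost its call without WT replicate 1 or q-lsu-KO replicate 3 or 4. The pathogenesis-related genes PR1, PR2 and PR5 had log2 fold changes of -3.74 ± 4.14, -3.14 ± 1.99 and -0.71 ± 0.83 with overlapping libraries and were not called, and neither was the salicylate synthesis gene ICS1 (-0.36 ± 0.41, adjusted p = 0.72).

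Many genes of sugar starvation and darkness were higher in the mutant. Of 18 tested, 11 were called higher, beside 3.36% of all genes tested, and 0 lower, with a median of 1.20. The calls depended on single libraries: 4 were called without WT replicate 1, 4 without WT replicate 2, 6 without WT replicate 3 and 4 each without q-lsu-KO replicates 3 and 4, 6 were called in a fit of only the 8 libraries, and 3 were called with each library left out. ASN1, an asparagine synthetase induced in the dark, stood at 11.6, 4.70, 8.48 and 17.1 CPM in WT and at 36.3, 62.1, 83.6 and 147 CPM in q-lsu-KO, a change of 2.91 ± 0.50 on the log2 scale (adjusted p = 0.0032). DRM2 (AT2G33830), a dormancy-associated gene, stood at 12.1, 11.2, 14.8 and 41.8 CPM in WT and at 61.2, 112, 186 and 205 CPM in q-lsu-KO, a change of 2.79 ± 0.55 on the log2 scale (adjusted p = 0.0084). The groups did not overlap in either gene, and the mutant libraries were spread widely, with replicate 1 the lowest and replicate 4 the highest. DRM1 (2.12 ± 0.43, adjusted p = 0.0099) was the third gene called with each library left out, and BT4 (1.04 ± 0.26, adjusted p = 0.012), BT2 (2.95 ± 0.67, adjusted p = 0.019), DIN10 (2.52 ± 0.57, adjusted p = 0.017), SEN1 (2.31 ± 0.52, adjusted p = 0.018) and BZIP1 (1.74 ± 0.39, adjusted p = 0.018) were called in 7 or fewer of those fits. Of 7 tested class II trehalose phosphate synthase genes, which are known to respond to sugar status, 4 were called higher (3.36% of all genes) and 0 lower, with a median of 1.15, and 2 without q-lsu-KO replicate 3 or without replicate 4. TPS8 stood at 27.2, 18.203, 24 and 38.6 CPM in WT and at 62.6, 82.3, 103 and 138 CPM in q-lsu-KO, a change of 1.81 ± 0.27 on the log2 scale (adjusted p = 0.0010). TPS11 (2.19 ± 0.39, adjusted p = 0.0040) was also called with each library left out, and TPS10 (1.15 ± 0.29, adjusted p = 0.0093) and TPS6 (0.72 ± 0.21, adjusted p = 0.023) in 6 and 3 of the 8 fits, with an adjusted p of up to 0.0741 and 0.0996.

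A few iron genes were called lower in the mutant, with a wide spread. Of 16 tested genes of iron deficiency and storage, 3 were called lower and 0 higher, with a median of -0.62, beside 1.47% of all genes called lower. These calls depended on the libraries: 0 were called lower and 1 higher in a fit of only the 8 libraries, 1 lower without WT replicate 2 or without q-lsu-KO replicate 4, 6 without WT replicate 4 and 8 without q-lsu-KO replicate 1, and 1 of the 3 was called with each library left out. BHLH38, a transcription factor of iron uptake, stood at 34.8, 33.5, 21.2 and 12.3 CPM in WT and at 11.4, 2.52, 1.20 and 1.68 CPM in q-lsu-KO, a change of -2.54 ± 0.52 on the log2 scale (adjusted p = 0.0071). IMA3, an IRON MAN peptide that signals iron deficiency, stood at 338, 288, 251 and 197 CPM in WT and at 168, 137, 51.7 and 32 CPM in q-lsu-KO, a change of -1.47 ± 0.41 on the log2 scale (adjusted p = 0.051), and was not called although all mutant libraries lay below WT. Replicate 1 was the highest mutant library in both. BHLH39 (-2.38 ± 0.57, adjusted p = 0.025), a close copy of BHLH38 with which reads may be shared, and OPT3 (-0.68 ± 0.18, adjusted p = 0.030), which loads iron into the phloem, were called in 5 and 4 of the 8 fits with a library left out, with an adjusted p of up to 0.0847 and 0.0969. The ferritin genes FER1 (-0.05 ± 0.19) and FER3 (-0.11 ± 0.14) were not called.

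Neighbouring genes on chromosome 1, from AT1G55450 to AT1G55610, differed in 1 direction. The stretch was chosen with earlier results of these data known, so its share of called genes follows in part from that choice. Of 12 tested genes of this stretch, 8 were called higher, beside 3.36% of all genes tested, and 0 lower, with a median of 0.90, all 8 with each library left out, and the other 4 had log2 fold changes of 0.46 to 1.17. AT1G55450, a predicted methyltransferase, stood at 40.8, 51.1, 35.3 and 65.9 CPM in WT and at 268, 295, 399 and 310.5 CPM in q-lsu-KO, a change of 2.71 ± 0.24 on the log2 scale (adjusted p = 1.6e-05). CPN60B, a plastid chaperonin, stood at 293, 292, 338 and 307 CPM in WT and at 537, 573, 583 and 559.5 CPM in q-lsu-KO, a change of 0.87 ± 0.08 on the log2 scale (adjusted p = 1.3e-11). ZKT (0.83 ± 0.08, adjusted p = 7.9e-11) and AT1G55530, a RING/U-box protein (1.22 ± 0.16, adjusted p = 7e-07), were the others of smallest adjusted p. The genotypes did not overlap in any of the 8. In roots under [nS], AT1G55450 and CPN60B had log2 fold changes of 0.89 ± 0.13 and 0.94 ± 0.14, and the median of the 12 genes was 0.95. In shoots under sulfur deficiency, 9 of the 12 were called higher, beside 3.53% of all genes tested, with a median of 0.85. The interaction with sulfur passed in 0 of the 12, and that with tissue in 1. The stretch lies on another chromosome than the LSU genes.

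Photosynthesis genes differed by little. Of 25 tested, 0 were called higher and 1 lower, LHCB4.3 (-0.70 ± 0.20, adjusted p = 0.022), beside 3.36% and 1.47% of all genes tested. The list had a median of 0.049 and a median range over libraries of 0.0891 in WT and 0.137 in q-lsu-KO on the log2 scale. LHCB4.3 was called in 3 of the 8 fits with a library left out (adjusted p of up to 0.083), and DESeq2 called 0 of the 25, while 12 had an unadjusted p under 0.05. Outside that list, LHB1B1, a chlorophyll-binding antenna protein with near-identical copies, was the most abundant gene called higher, at 2983, 2838, 2567 and 3208 CPM in WT and at 4292, 4224, 4659.7 and 4280.2 CPM in q-lsu-KO. Its log2 fold change of 0.59 ± 0.07 (adjusted p = 3.1e-06) is just above the fold threshold, and without WT replicate 2, WT replicate 3 or q-lsu-KO replicate 3 it fell below it (0.58, 0.54 and 0.56). PORB, an enzyme of chlorophyll synthesis, stood at 491, 538, 564 and 683 CPM in WT and at 863, 879.8, 932 and 1116 CPM in q-lsu-KO, a change of 0.74 ± 0.12 on the log2 scale (adjusted p = 0.0022). CCL, of unknown role, rose from 601 ± 108 CPM (SD, n = 4) to 1035 ± 232 CPM (SD, n = 4) (0.78 ± 0.17, adjusted p = 0.013), a call lost without WT replicate 1 (0.0507). FIB, a plastid fibrillin, fell from 701 ± 82.5 CPM (SD, n = 4) to 448 ± 66.5 CPM (SD, n = 4) (-0.65 ± 0.10, adjusted p = 0.00068), a call lost without q-lsu-KO replicate 3, where its fold was under the threshold (-0.57).

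Several lists had no called member. None of the tested genes was called in cold and abscisic acid (11 genes, 2 with an unadjusted p under 0.05), heat shock (3, 1), ER chaperones (12, 2), phosphate starvation (10, 2), flavonoid and anthocyanin synthesis (13, 1), ethylene (6, 1) or the cytosolic ribosomal proteins (275, 32), and DESeq2 called none of them either. Of 81 tested plastid genome genes 0 were called (8 with an unadjusted p under 0.05) and DESeq2 called 1, and of 9 mitochondrial genome genes 0 were called by either tool (0 with an unadjusted p under 0.05). In the circadian clock, 3 of 15 genes were called higher (GRP7, TOC1 and RVE1) and 2 lower (CCA1 and RVE8), beside 3.36% and 1.47% of all genes tested, none of them with each library left out. Their log2 fold changes were 0.59 ± 0.10, 1.08 ± 0.27, 1.21 ± 0.31, -0.59 ± 0.15 and -0.84 ± 0.26. Single members were called higher in other lists: ATG8E, an autophagy protein (1.19 ± 0.25, adjusted p = 0.010), CAT1, a catalase (0.95 ± 0.17, adjusted p = 0.00018), and NAP, a factor of leaf senescence (1.56 ± 0.36, adjusted p = 0.0055), each with every library left out in turn, LBD38, a repressor of nitrate responses (0.81 ± 0.21, adjusted p = 0.012), in 6 of the 8 fits and HUP26 of the hypoxia list (1.54 ± 0.40, adjusted p = 0.035) in 2. These were 1 of 10 tested ATG8 and NBR1 genes, 1 of 8 redox, 1 of 5 senescence, 1 of 8 nitrate and 1 of 3 hypoxia genes. Beside them stand 3.36% of all genes tested. Another 11 listed hypoxia genes were not tested, and DESeq2 called 0 nitrate genes. Of 8 tested auxin and growth genes, 1 was called higher and 2 lower, beside 3.36% and 1.47% of all genes tested. IAA2 was higher (0.95 ± 0.22, adjusted p = 0.020), in 4 of the 8 fits, and the expansin genes EXPA1 (-0.72 ± 0.13, adjusted p = 0.0014) and EXPA5 (-0.75 ± 0.15, adjusted p = 0.00063) lower.

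**Figure D5:**
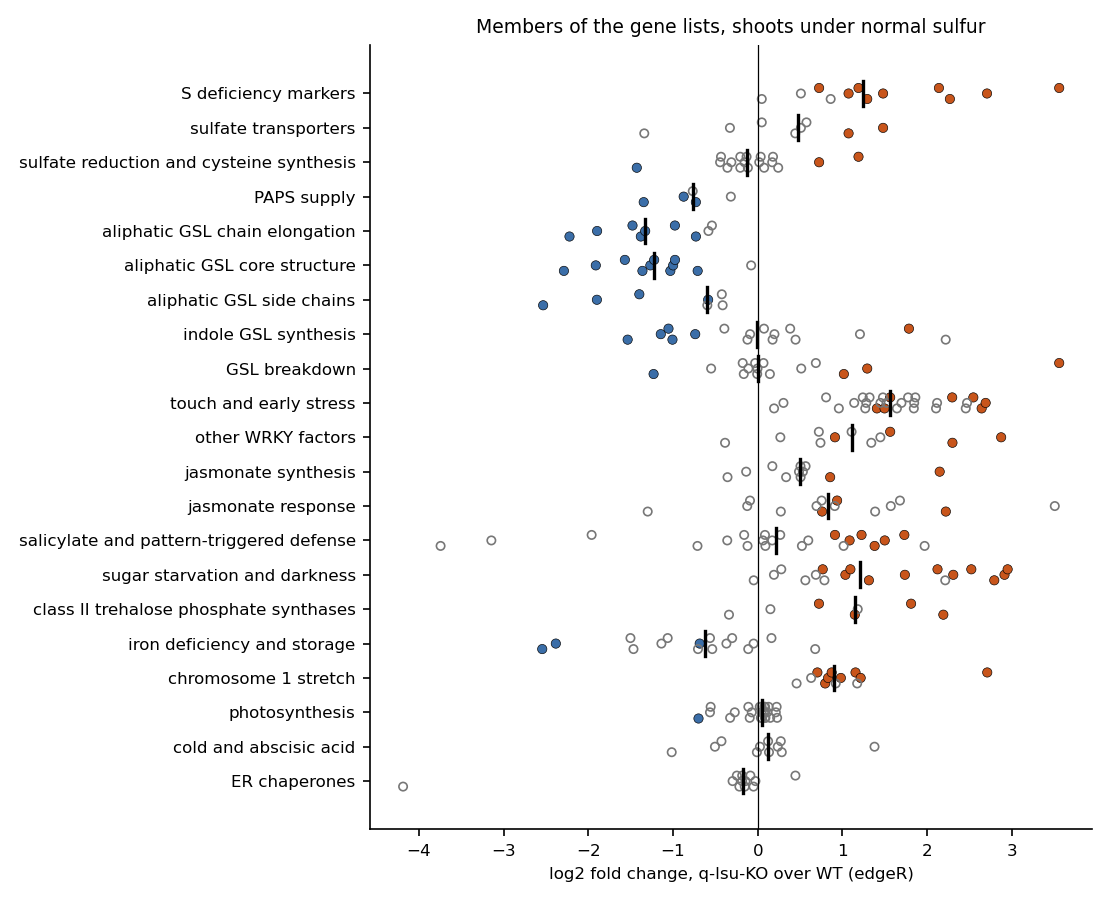
Log2 fold changes (q-lsu-KO over WT) of the tested members of 21 gene lists, 1 circle per gene, filled orange where called higher, filled blue where called lower and open where not called, with the median of each list as a black bar. Aliphatic GSL lists lie left of 0 with medians of -1.33 to -0.59, the S deficiency markers and touch genes lie right of 0 with medians of 1.24 and 1.56, and photosynthesis genes sit near 0.

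Outside the lists, the largest rises without overlap at a mean log2 CPM of 4 or more were AT3G15450 (2.63 ± 0.61, adjusted p = 0.022), PHI-1 (2.6 ± 0.51, adjusted p = 0.0081), AT1G76600 (2.6 ± 0.64, adjusted p = 0.030), AT2G25735 (2.55 ± 0.49, adjusted p = 0.0072) and AT3G15630 (2.55 ± 0.49, adjusted p = 0.0073). AT1G76600 was called in 1 of the 8 fits with a library left out and AT3G15450 in 3, with adjusted p of up to 0.0938 and 0.0702, and the other 3 in all. The largest falls outside the lists and AK3 were AT2G44940, an AP2-type DNA-binding protein (-1.58 ± 0.37, adjusted p = 0.016, lost without WT replicate 1, q-lsu-KO replicate 3 or 4, with adjusted p of up to 0.066), and AT3G45210 (-1.45 ± 0.29, adjusted p = 0.0036). At the threshold, the 3 genes just inside had adjusted p of 0.04922 (CBP60G), 0.04972 (TEM1) and 0.04972 (MYB20), and the 3 just outside 0.05004 (KCS12), 0.05036 (BZO2H3) and 0.05036 (CRK11), with log2 fold changes of 1.73 ± 0.48, 1.54 ± 0.43, 0.77 ± 0.25, 0.99 ± 0.32, 1.19 ± 0.34 and 1.61 ± 0.49. The largest spread within q-lsu-KO was seen in BHLH100, AT5G64120, EARLI1 and AT2G14247, with ranges of 3.96, 2.90, 2.92 and 2.32 on the log2 scale, and none of these was called.

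Under sulfur deficiency [dS], with other plants of both genotypes in another pool and no shared control, the genes called under [nS] were looked up by their own values. Of the 490 genes called higher under [nS], 469 (95.7%) had the same sign under [dS] and 287 (58.6%) were called higher there, which is 55.7% of the 515 genes called higher under [dS] (3.53% of genes tested). Of the 214 called lower, 174 (81.3%) had the same sign, 29 (13.6%) were called lower, which is 31.2% of the 93 called lower under [dS] (0.637%), and 1 was called in the opposite direction. The median log2 fold changes under [dS] were 0.83 and -0.31. The interaction of genotype and sulfur passed in 62 genes (0.425%), 27 above 0 (0.185%) and 35 below (0.240%). It passed in 25 of the 490 and 31 of the 214, with the larger effect under [nS], a direction that follows largely from choosing the genes by their [nS] effect.

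Each list is given by its own counts, and no difference between lists was tested. In the 3 aliphatic GSL lists the interaction was below 0 in 15 of 27 genes, and 1 of the 27 was called lower under [dS], with a median there of 0.017. For MAM1 the genotype effect was -1.33 ± 0.10 under [nS] and 0.54 ± 0.14 under [dS], a difference of -1.87 ± 0.17 (interaction, adjusted p = 6.4e-11). Among the S deficiency markers the interaction was above 0 in 7 of 12 genes and 0 were called under [dS]. GGCT2;1 had 2.27 ± 0.08 under [nS] and -0.25 ± 0.07 under [dS], a difference of 2.52 ± 0.11 (interaction, adjusted p = 8.5e-22). In the touch list, with its wide spread in WT, it passed in 0 of 29 genes, the median under [dS] was 1.35 and 9 genes were called there. MPK3 had 1.56 ± 0.20 and 1.21 ± 0.19, a difference of 0.36 ± 0.27 (interaction, adjusted p = 0.91), a difference that did not pass the test.

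In roots under [nS], 419 of the 490 genes called higher were tested and 12 were called higher there, beside 16 of 12900 genes tested in both tissues (0.124%), and of 167 tested genes called lower 1 was called lower, beside 5 of 12900 (0.0388%). Shoots and roots differed in the effect of genotype in 197 of these 419 and 64 of these 167 genes, which were chosen for their effect in shoots. Beside this stand 331 of 14558 genes (2.27%) in the joint fit of shoots and roots, not all of which were tested in roots alone. BCAT4 had a log2 fold change of -2.22 ± 0.15 in shoots and -0.25 ± 0.11 in roots, and WRKY53 2.87 ± 0.42 and -0.47 ± 0.32. The tissues were sequenced in separate pools, and each genotype effect was taken within its pool.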

How the data were processed

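The deposited files hold raw whole-number read counts per gene, which the authors made from 3′RNA-seq reads. Per the submitters' notes, the tools included STAR 2.7.8a and DESeq2 and the build was TAIR10, whereas which program counted the reads, on what annotation and whether molecular identifiers were used is not given in the sources used here. Of 37336 genes, 37051 matched RefSeq TAIR10.1, which gave names, positions and promoters, and 11380 had no count in any library.

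Groups came from the sample labels. edgeR 4.0.16 (R 4.3.3) was fitted to the 16 shoot libraries with 4 group means, so that all shoot groups shared 1 estimate of the spread (genes kept by filterByExpr at a minimum of 10, TMM scaling, robust quasi-likelihood F-test, two-sided). The standard error is the absolute log2 fold change over the root of F, and p-values were adjusted by Benjamini-Hochberg over all genes tested. Genes called had an adjusted p under 0.05 and a fold over 1.5, and interactions passed by the same limits. CPM used TMM-scaled library sizes, and log2 CPM a prior count of 2. The interactions of genotype with sulfur came from the same fit, and those with tissue from a fit that also held root libraries. Groups were said not to overlap where every CPM of one genotype exceeded every CPM of the other. Library totals of 1223064 to 2032330 counts limit what can be said of genes of a few counts.

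The members and the 37 gene lists were chosen with earlier results of these data known. Genes named were members of the lists, LSU neighbours, the 12 largest rises and the 12 largest falls without overlap at a mean log2 CPM of 4 or more, the most abundant called genes, the genes of largest spread and those at the threshold. Genes with near-identical copies may share reads. Alternatives were DESeq2 1.42.0, limma 3.58.1 voom with quality weights, other size factors, filters and call rules, a replicate block, thinned counts, only the 8 libraries, and each library left out in turn. Leaving out WT replicates 1 and 4 was added after seeing the data. The scripts were tested on simulated counts.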

Additional observations from a re-analysis of the deposited data

Results flagged for a closer look

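The genotype effect (log2 fold change, q-lsu-KO over WT) in shoots was compared with that in other conditions by an interaction term in edgeR. The effect under [nS] minus that under [dS] passed with an adjusted p under 0.05 and a difference over 1.5-fold. This was so in 18 of 52 genes that are given with their values per library, beside 0.425% of all genes tested. Among S deficiency, sulfur and jasmonate genes the difference was above 0, at 1.78 (LSU1), 1.72 (LSU3), 2.52 (GGCT2;1), 1.38 (NSP5), 2.99 (SDI1), 1.92 (SHM7), 3.38 (BGLU28), 1.14 (SULTR4;2), 1.6 (SERAT3;2) and 0.74 (AOC2). Among sulfate activation, methionine and GSL genes it was below 0, at -1.17 (ATPS2), -1.93 (APK2), -1.23 (CYP83A1), -2.01 (SOT17), -1.87 (MAM1), -2.25 (AK3), -0.94 (MS2) and -1.23 (GSTF9). Adjusted p ranged from 8.49e-22 (GGCT2;1) to 0.0176 (LSU3), and these genes were chosen with their effect under [nS] known.

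The effect in shoots minus that in roots, both under [nS], passed in 33 of these 52 genes, beside 2.27% of the genes in the joint fit. Here too the genes were chosen with their effect in shoots under [nS] known. The difference was above 0 at 1.8 (LSU1), 1.54 (LSU3), 2.33 (LSU4), 1.89 (GGCT2;1), 1.27 (NSP5), 2.27 (SDI1), 1.75 (SHM7), 2.1 (MYB51), 2.77 (WRKY33), 2.33 (TCH3), 1.51 (MPK3), 3.37 (WRKY53), 1.59 (ATL6), 1.51 (NDR1), 2.54 (JAZ5), 2.63 (LOX4), 3.31 (ASN1), 2.16 (DRM2), 1.67 (TPS8) and 1.84 (AT1G55450). It was below 0 at -1.41 (ATPS2), -1.22 (APK2), -0.99 (MYB28), -1.95 (BCAT4), -1.18 (CYP83A1), -1.91 (SOT17), -1.25 (MAM1), -1.81 (AK3), -1.16 (MS2), -1.01 (GSTF9), -1.49 (MYB34), -1.26 (NIT4) and -2.60 (BHLH38). Adjusted p ranged from 1.4e-11 (NSP5 and BCAT4) to 0.0469 (DRM2). Sulfur condition and sequencing pool, and tissue and pool, cannot be told apart in these differences.

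In 5 of 104 groups of 4 libraries, 1 library stood far from the other 3 by Dixon's test, and chance gives about 1 in 20. SOT17 was lowest in WT replicate 2 at 42.9 CPM, against 59.0 CPM in the nearest WT library. DRM2 was highest in WT replicate 4 at 41.8 CPM, against 14.8 CPM. In q-lsu-KO, NDR1 at 24.9 CPM in replicate 1 stood above 15.6 CPM, BHLH38 at 11.4 CPM in replicate 1 above 2.52 CPM, and LHB1B1 at 4659.7 CPM in replicate 3 above 4292 CPM.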

How the results depend on the processing

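With 1 library left out at a time, 325 to 586 genes were called higher and 139 to 277 lower, with the fewest without q-lsu-KO replicate 3 (325 and 139) and 142 lower without q-lsu-KO replicate 4, in fits with fewer libraries. Without the fold threshold, 379 genes were lower. Indole GSL genes called higher numbered 3 in a fit of only the 8 libraries, 2 with DESeq2 and 1 to 2 over the libraries left out (2 without q-lsu-KO replicate 1). Touch and early stress genes called higher numbered 12 and 14 in those fits and 4 to 9 over the libraries left out (4 without WT replicate 2). Sugar starvation genes numbered 6 in the fit of the 8 libraries and 4 to 12 over the libraries left out. Where counts moved between tools, the cause was not tested. Same-numbered libraries of the genotypes had deviations that correlated at 0.0859, 0.00394, -0.0528 and 0.0552 over 8573 genes, and WT replicate 4 correlated best with q-lsu-KO replicate 3 (0.122). Whether libraries of the same number were grown or handled together is not given in the sources, and these correlations cannot decide it. With the replicate number as a block, 583 genes were called higher and 245 lower. RLE size factors gave 487 and 220, no filter 598 and 252, a stricter filter 483 and 217, no organelle genes 491 and 227, voom with quality weights 537 and 229, and thinned counts 483 and 201. A set of 154 called genes, picked by rule and not identical with the genes named in the text, was followed through up to 20 alternatives. None of the 154 reversed. Of them, 37 lost their call without WT replicate 1 and 37 without q-lsu-KO replicate 4. Without WT replicate 2 or without q-lsu-KO replicate 3, 33 lost it, and with DESeq2 16. At these depths genes of a few counts per library, such as MYB76, could not be tested.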

Other observations

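Outside the lists, genes named after their values were seen had some of the smallest adjusted p of edgeR's test. MSRB5, a methionine sulfoxide reductase that repairs oxidized methionine, stood at 200.1, 255, 263 and 258 CPM in WT and at 527, 533, 558 and 538 CPM in q-lsu-KO, a change of 1.15 ± 0.07 on the log2 scale (adjusted p = 3.2e-16). SBP2, a selenium-binding protein, stood at 209.6, 183, 201 and 208 CPM in WT and at 67.3, 78.1, 83.6 and 72.4 CPM in q-lsu-KO, a change of -1.41 ± 0.09 on the log2 scale (adjusted p = 1.2e-15). Both were called with each library left out, with no overlap of the genotypes. GILP, a membrane protein named for its induction by glutathione (1.38 ± 0.13, adjusted p = 1.9e-10), AT3G56200, an amino acid transporter family member (1.04 ± 0.11, adjusted p = 9.4e-10), and SFP1, a sugar transporter relative (0.89 ± 0.09, adjusted p = 3.1e-09), were called higher with each library left out, and DJ1F, a glutamine amidotransferase-like protein (-1.09 ± 0.13, adjusted p = 1e-07), lower.

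By product name, in families chosen after the data were seen, 12 of 65 tested disease resistance genes were called higher and 0 lower (18.5% against 3.36% of all genes), 5 of them with each library left out. AT5G41740 and AT1G63750, of the TIR-NBS-LRR class of immune receptors, had log2 fold changes of 3.40 ± 0.48 (adjusted p = 0.00063) and 2.21 ± 0.37 (adjusted p = 8.4e-05), and such genes have close copies that can share reads. Of 74 genes of calmodulin and EF-hand proteins, which bind calcium, 9 were called higher and 0 lower (12.2%). Of 451 protein kinase genes, 32 were called higher (7.10%) and 4 lower (0.887%), and of 285 RING and U-box genes 16 (5.61%) and 3 (1.05%). Of 16 syntaxin genes 2 were called higher (12.5%), SYP121 (1.5 ± 0.21, adjusted p = 1.1e-05) and SYP122 (2.32 ± 0.48, adjusted p = 0.012), which act in secretion at the plasma membrane. Of 88 cytochrome P450 genes 0 were called higher and 6 lower (6.82% against 1.47% of all genes). Of these, 5 are GSL genes described above and the other was CYP706A6 (-0.69 ± 0.11, adjusted p = 4.9e-05). Of 51 MYB genes, 9 were called higher (17.6%) and 5 lower (9.80%), and of 66 ERF and AP2 genes 6 (9.09%) and 3 (4.55%). Of 89 F-box genes, 1 was called higher (1.12%) and 0 lower, and of 15 expansin genes 0 higher and 2 lower (13.3%).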
